A study of Rattus with 6 samples.

Results

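Cd68 and Itgax are genes best known from macrophages and dendritic cells, and here their transcripts were measured in a pituitary cell line. They are 2 of the 12801 genes, and 23 of the 118147 exons, in the deposited table. The rows were found by gene symbol, and the 2 genes had been chosen by their large difference in RNA level between aspirin-treated and control cells in these same libraries. That difference is therefore given as a description, with no test. The cells were RC-4B/C, an established rat pituitary adenoma line, and their polyadenylated RNA was sequenced. In 3 libraries the cells had received aspirin (labelled ASA, for acetylsalicylic acid), and in the 3 control libraries DMSO, a solvent. The labels used here name neither dose nor duration, and do not say whether the libraries stem from independent cultures, so p-values measure the spread between these libraries only, which may be technical. A second line named in the study's design, GH3, is not analysed here. The libraries held 66492446 to 94486062 reads in listed exons. ASA replicate 2 stood apart from the rest, with 497 exons at 0 reads against 4 to 13 in the other 5 libraries. Its values are given separately for the members and many other genes, but not for every gene named. Pou1f1, the transcription factor gene of the prolactin, growth hormone and thyrotropin cell lineages, stood at 584 to 804 RPKM (reads per kilobase and per 1000000 reads) in the 6 libraries.

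CD68 is a heavily glycosylated protein of the lysosomal membrane and belongs to the family of lysosome-associated membrane proteins (LAMP). It is most abundant in macrophages, where it is used as a tissue marker, but it is also made at lower levels in other cell types with active lysosomes. Itgax encodes the integrin alpha X chain, CD11c, which reaches the cell surface paired with the beta 2 chain encoded by Itgb2. The pair binds complement fragments, fibrinogen and intercellular adhesion molecules, and is a common marker of dendritic cells and some macrophages. In the pituitary gland, such leukocytes are minor residents beside the hormone-producing cells, whereas a cell line is normally free of them.

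Levels are RPKM, in which a gene's reads over all its listed exons are divided by their summed length in kilobases and by the library's reads, per 1000000. Cd68 had 28.9, 210.1 and 69.4 RPKM in ASA replicates 1, 2 and 3. In DMSO replicates 1, 2 and 3 it had 1.90, 2.999 and 2.537. The groups were far apart, with the lowest ASA library 9.62 times the highest DMSO library, and the ASA libraries also differed widely from each other. The group means were 102.8 ± 95.1 RPKM with ASA and 2.48 ± 0.55 with DMSO (SD, n = 3). The fitted log2 difference of RPKM + 0.1 was 4.89 ± 0.64 (SE), which is 29.6-fold. It was 47.6-fold without ASA replicate 1 and 17.7-fold without ASA replicate 2, the lowest and the highest of the ASA libraries.

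Itgax had 21.4, 26.8 and 33.05 RPKM in ASA replicates 1, 2 and 3. Its values in DMSO replicates 1, 2 and 3 were 2.102, 0.955 and 1.30. The lowest ASA library was 10.2 times the highest DMSO library, and the ASA libraries lay close together. The group means were 27.1 ± 5.84 RPKM with ASA and 1.45 ± 0.589 with DMSO (SD, n = 3). The fitted log2 difference was 4.18 ± 0.35 (SE), which is 18.1-fold, and it ranged from 3.93 to 4.46 when any 1 library was left out. By this fitted difference Cd68 stood at place 1 and Itgax at place 3 of the 12502 genes with a mean of at least 0.5 RPKM, and this contrast is the one by which they were chosen. Among those 12502 genes, 19.9% had all ASA libraries above all DMSO libraries, and 11.2% passed the limma test at a Benjamini-Hochberg adjusted p under 0.05.

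**Figure D1:**
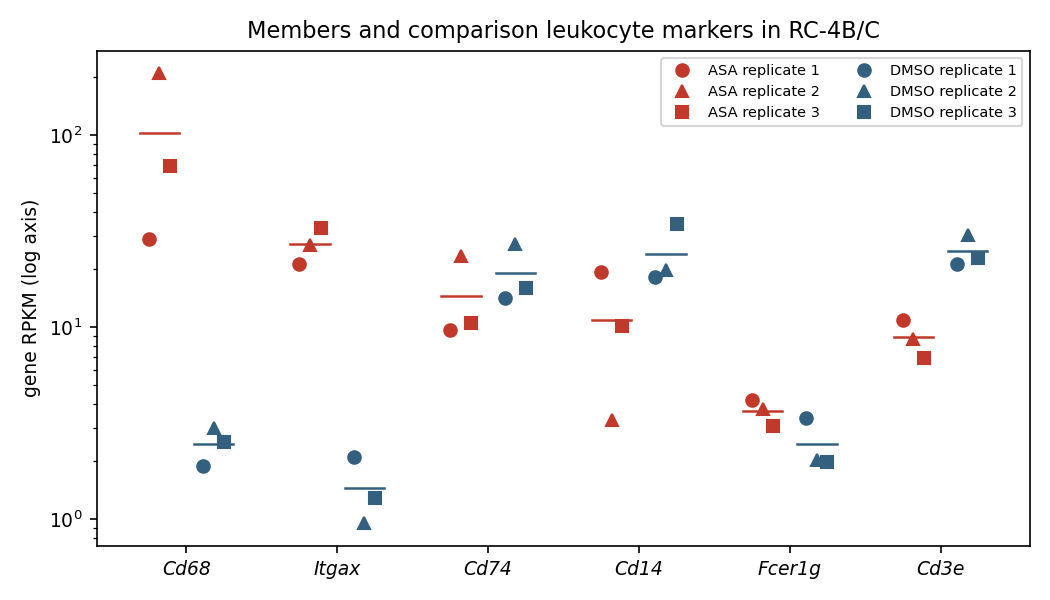
Gene RPKM on a log axis (vertical) of Cd68, Itgax and 4 comparison leukocyte markers (horizontal) in the 3 ASA (red) and 3 DMSO (blue) libraries; each symbol is 1 library and each bar a group mean. Cd68 spans 28.9 to 210.1 RPKM among the ASA libraries while Itgax spans 21.4 to 33.05, and of the comparison markers Cd74, Cd14 and Cd3e have negative log2 differences and Fcer1g a positive one of 0.58.

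In control cells both genes were in the lowest part of the measured range. Of all genes in the table, 11.4% to 15.3% had a lower RPKM than Cd68 in the DMSO libraries, and 6.10% to 12.2% a lower RPKM than Itgax. With ASA, Itgax reached the middle of the range, with 48.8% to 60.9% of genes below it. Cd68 reached places from the middle to the top, with 57.1%, 94.6% and 80.1% of genes below it in ASA replicates 1, 2 and 3. The low control values were still well counted. Cd68 rested on 178, 244 and 231 reads in DMSO replicates 1, 2 and 3, with an exact Poisson 95% interval of 153 to 206 for the smallest. Itgax rested on 448, 177 and 269 reads, with an interval of 152 to 205 for the smallest. These intervals cover counting error only. In the ASA libraries the reads numbered 2630 to 13831 for Cd68 and 4027.5 to 6513 for Itgax, as recovered from the deposited values, which did not all give whole reads.

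The 2 genes differed in how their replicates spread. Among the ASA libraries the SD of log2(RPKM + 0.1) was 1.43 for Cd68, larger than in 97.1% of tested genes, and 0.31 for Itgax, larger than in 35.5%, against a median over all tested genes of 0.41. Among the DMSO libraries the order was the other way, with 0.32 for Cd68 and 0.54 for Itgax against a median of 0.18. Cd68 in ASA replicate 2 was 7.28 times its value in ASA replicate 1, a ratio reached by 35 of the 12502 genes (0.28%), while the median gene had a ratio of 0.78. Itgax had a ratio of 1.26 between the same libraries. The part of the properties of ASA replicate 2 in its high Cd68 value was not tested. Cd68 was also higher in ASA replicate 3 than in ASA replicate 1, at 69.4 against 28.9 RPKM. The ratio of Cd68 to Itgax RPKM accordingly was 1.35, 7.83 and 2.099 in ASA replicates 1, 2 and 3. In DMSO replicates 1, 2 and 3 it was 0.905, 3.14 and 1.96, so the ratio overlapped between the groups.

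The table gives values per exon, and each gene's difference could be followed along its length. Cd68 lies on the minus strand of chromosome 10 (Rnor_6.0; ENSRNOG00000037563), from 56268888 to 56270557 between the outer ends of its listed exons. All 6 of its numbered exons had rows, 990 bases in all, and since numbers follow the chromosome, number 6 is the 5′ end of the gene and number 1 the 3′ end. All 6 exons had every ASA library above every DMSO library, which holds for 17.3% of the exons in the table. The log2 difference of the exons lay between 4.70 (exon 3) and 5.13 (exon 1), with a median of 4.92. The difference was thus of similar size from the first to the last exon. Exon 5, the longest at 446 bases, held 31.4% to 35.7% of the gene's reads in the 6 libraries. The shares of other exons varied more, from 11.8% to 20.8% for exon 1 and from 8.66% to 15.7% for exon 3, with the lowest share of exon 1 and the highest of exon 3 both in DMSO replicate 1. The 5′ exon 6, of 43 bases, had the highest RPKM in the 3 ASA libraries at 53.0, 338.6 and 136.2, and 2.34, 5.52 and 4.80 in the DMSO libraries. The 3′ exon 1 had 37.7, 329.6 and 82.8 RPKM in ASA replicates 1, 2 and 3. In DMSO replicates 1, 2 and 3 it had 1.70, 3.72 and 3.40. Values that were not whole reads numbered 6 of the 36, all in the neighbouring exons 5 and 6.

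Itgax lies on the plus strand of chromosome 1 (Rnor_6.0; ENSRNOG00000036703), and its listed exons run from 199556557 to 199576003. Of its 30 numbered exons 17 had rows, 2256 bases in all, among them exon 2 near the 5′ end and exon 30 at the 3′ end. The other 13 exons, exon 1 included, are not analysed here. All 17 exons had every ASA library above every DMSO library, which holds for 17.3% of the exons in the table. Both genes were chosen for this difference, so the exon counts are a description. Each listed exon had over 10 reads in at least 4 of the 6 libraries, which no exon reaches on its DMSO libraries alone. If that was a filter, ASA values helped decide which exons have rows. Exons 2 and 26 had 19, 5 and 13, and 23, 4 and 15 reads in DMSO replicates 1, 2 and 3. The log2 differences of the 17 exons lay between 3.42 (exon 14) and 4.76 (exon 26), with a median of 4.21. Exon 14 had 13.1, 4.23 and 21.4 RPKM in ASA replicates 1, 2 and 3, and 2.02, 0.93 and 0.36 in DMSO replicates 1, 2 and 3. Exon 26 had 30.4, 57.3 and 47.6 with ASA, and 2.90, 0.58 and 1.94 with DMSO. In ASA replicates 1 and 3 the highest exon was 2.31 and 2.22 times the lowest, but in ASA replicate 2 it was 13.6 times. In that library the low values lay inside the gene, with exons 8, 11 and 14 at 11.4, 9.95 and 4.23 RPKM. Exons 2 and 7 on their 5′ side had 38.6 and 30.5 RPKM, and exons 26, 29 and 30 near the 3′ end had 57.3, 40.5 and 48.5. Other genes of that library were uneven along their length too. The SD of log2 exon values within a gene had a median of 0.78 over 8207 genes with at least 5 listed exons in ASA replicate 2, against 0.43 to 0.45 in the other 5 libraries. For Itgax it was 0.92 there, and for Cd68 0.49, which 12.3% of those genes undercut.

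**Figure D2:**
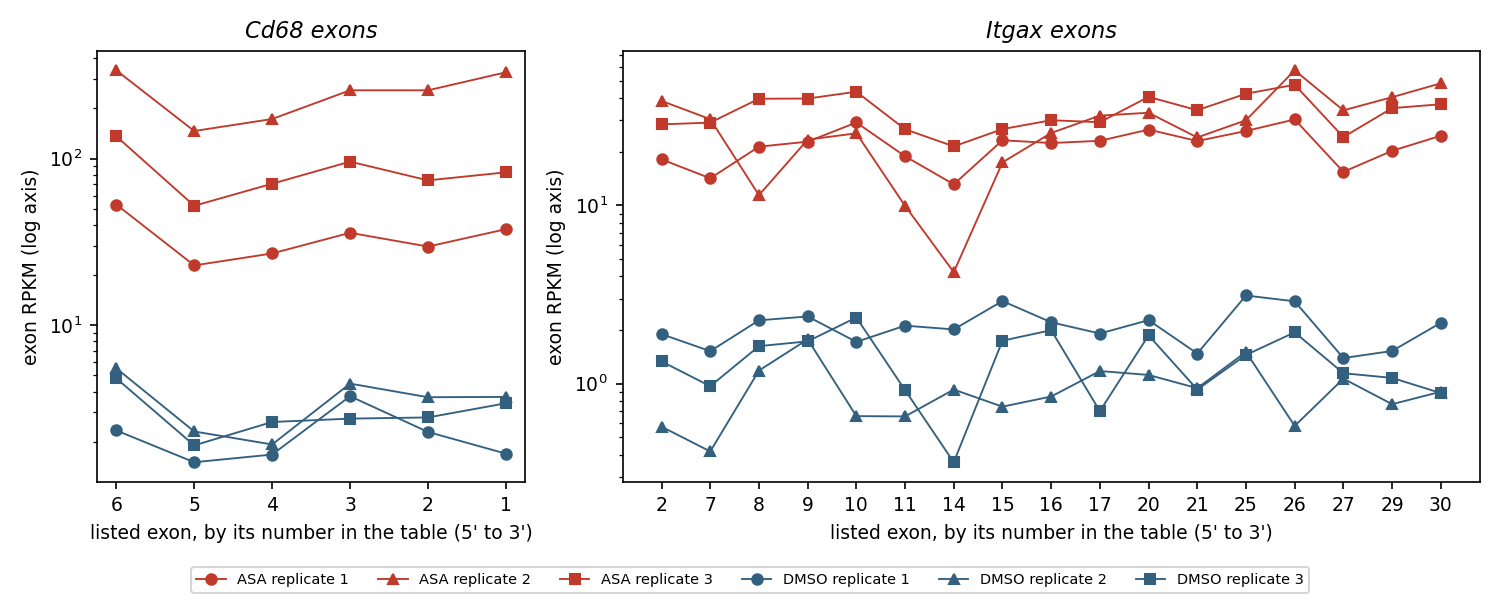
RPKM on a log axis (vertical) of each listed exon (horizontal, 5′ to 3′, by its number in the table) of Cd68 on the left and Itgax on the right; each line is 1 library, red for ASA and blue for DMSO. The ASA lines lie above the DMSO lines at all 6 and all 17 exons, and the line of ASA replicate 2 dips to 4.23 RPKM at exon 14 of Itgax.

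The name of the Itgax row carries a limit. In RefSeq's gene table for the later assembly GRCr8, Itgam, Itgax and Itgad lie side by side, and Itgax is also an older name of Itgad. The 3 genes encode related alpha chains, and neither Itgam nor Itgad had a row under its own symbol in the table. The value is therefore that of the listed gene ENSRNOG00000036703, and reads shared with its relatives cannot be told apart here.

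Both genes are leukocyte markers, so other leukocyte genes were read beside them. Cd74, the invariant chain of major histocompatibility complex class II, had 9.67, 23.6 and 10.5 RPKM in ASA replicates 1, 2 and 3. In DMSO replicates 1, 2 and 3 it had 14.2, 27.3 and 16.0. The groups overlapped, and the log2 difference was -0.45 ± 0.41 (SE, adjusted p = 0.485). Cd14, the co-receptor for bacterial lipopolysaccharide on monocytes, had 19.3, 3.28 and 10.1 RPKM with ASA and 18.2, 19.8 and 34.5 with DMSO. Its log2 difference was -1.41 ± 0.60 (adjusted p = 0.165), and leaving out ASA replicate 2 brought it to -0.73. Cd14 passed as lower without ASA replicate 1 (adjusted p = 0.0487, the lowest of the 6 such fits, the highest being 0.42). Fcer1g, the signalling gamma chain of Fc receptors in myeloid cells, rested on 10 to 23 reads a library. It had 4.16, 3.76 and 3.05 RPKM with ASA and 3.35, 2.03 and 1.99 with DMSO (log2 difference 0.58 ± 0.34, adjusted p = 0.282). Cd3e, a chain of the T cell receptor complex, had 10.9, 8.73 and 6.95 RPKM with ASA and 21.4, 30.2 and 23.04 with DMSO. It fell 2.80-fold (log2 difference -1.49 ± 0.26, adjusted p = 0.0209), opposite in direction to the difference in Cd68 and Itgax. It no longer passed when ASA replicate 3, or any 1 of the DMSO libraries, was left out (adjusted p 0.0153 to 0.116 over the 6 fits). Every call made with all 6 libraries and named from here on was lost without ASA replicate 3 and without DMSO replicate 3. In those 2 limma fits no gene of the table passed, although 2924 and 2342 genes had an unadjusted p under 0.05.

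Most leukocyte markers had no row in the table analysed here. Every exon in the table had over 10 reads in at least 4 of the 6 libraries, so no listed exon was read above that count in the 3 ASA libraries alone. Of 114 markers in 6 leukocyte lists, with Cd68 and Itgax left out, 93 had no row. Among these were the pan-leukocyte gene Ptprc, the macrophage genes Csf1r, Adgre1 and Tyrobp, the integrin gene Itgam, and Itgb2, the partner chain of the Itgax product. Spi1, which encodes the myeloid transcription factor PU.1 and is in another list, had no row either. Of the 20 that were tested, 1 rose and 1 fell, with 10 positive and 10 negative log2 differences. Their share called, 10%, lies beside 11.2% of all tested genes (6.21% higher and 4.99% lower with ASA), and their median log2 difference was -0.06, as it was over all tested genes. The gene that rose was Gpnmb, which encodes a glycoprotein of lysosomes and melanosomes found in macrophages, osteoclasts and pigment cells. It had 66.2, 85.6 and 73.3 RPKM with ASA and 12.9, 7.34 and 16.0 with DMSO, 6.44-fold higher (log2 difference 2.69 ± 0.30, adjusted p = 0.0119). The gene that fell was Cd3e.

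By cell type, 0 of 7 tested pan-leukocyte genes passed the limma test, with 0 at an unadjusted p under 0.05 and 0 by voom, which weights each value by its expected precision. The smallest p in that list was that of Sp140, a nuclear body gene of leukocytes, with a log2 difference of 0.54 (adjusted p = 0.239). In the monocyte and macrophage list 28 of 32 symbols had no row, and Gpnmb was the 1 of 4 tested genes that passed. In the dendritic cell and antigen presentation list 0 of 6 passed, with 1 at an unadjusted p under 0.05 and 0 by voom. Zbtb46, a transcription factor gene of dendritic cells, had 5.94 ± 0.684 RPKM with ASA and 3.30 ± 0.676 with DMSO (adjusted p = 0.0988). Cd80, a costimulatory ligand, had 4.95 ± 0.227 and 7.60 ± 1.39 (adjusted p = 0.178). Of 2 T and NK cell genes tested Cd3e fell, and the T cell kinase gene Lck averaged 5.38 ± 1.07 and 10.6 ± 2.44 (adjusted p = 0.0709). The B cell list had 1 tested gene, Jchain, with 1.63 to 2.48 RPKM in ASA and 1.24 to 1.46 in DMSO libraries (adjusted p = 0.315), and the granulocyte and mast cell list had none. The summed RPKM of all listed leukocyte markers was 291.6 to 307.3 in ASA and 250.1 to 297.9 in DMSO libraries, a range that overlaps. Without Gpnmb, left out after its value was seen, it was 221.7 to 229.8 and 237.1 to 282.3. Much of this last sum came from Fscn1 of the dendritic cell list and Cytip of the pan-leukocyte list. Fscn1 averaged 51.6 ± 12.5 RPKM with ASA and 69.7 ± 8.09 with DMSO, and Cytip 52.1 ± 8.86 and 42.9 ± 6.17. For Cd68 and Itgax themselves, more cells of a type and more RNA per cell cannot be told apart in bulk RNA, and the part of any leukocytes in the cultures was not tested beyond these values.

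Markers of some other cell types moved with the treatment. In a list of folliculostellate, endothelial, stromal and erythroid genes 7 of 21 were tested. In limma 2 rose and 3 fell, which is 71.4% called beside 11.2% of all tested genes. By voom 2 of the 7 rose and 2 fell, where 761 of all 12502 tested genes rose and 621 fell. The stromal proteoglycan gene Dcn rose 2.49-fold (2736 ± 563 against 1082 ± 22.6 RPKM, adjusted p = 0.0213). The 2 genes that did not pass in limma had negative log2 differences, -0.23 for the stromal gene Lum and -0.98 for Aldoc (adjusted p = 0.734 and 0.189). The receptor gene Pdgfrb, found on pericytes, rose 3.89-fold (adjusted p = 0.0372), while Rgs5, another pericyte gene, fell 8.72-fold (adjusted p = 0.0402). Rgs5 rested on 1 listed exon, with 9 to 19 reads in the ASA and 43 to 286 in the DMSO libraries. Hba-a3 and Hba-a2, which encode alpha-globin chains, fell too (adjusted p = 0.0148 and 0.0206), near-identical copies whose reads can be divided between them. Hba-a2 also rested on 1 listed exon, with 2 to 24 reads in the ASA and 199 to 434 in the DMSO libraries. The log2 difference of Rgs5, -3.12 in all, was -3.97 without DMSO replicate 1, and -2.52 without DMSO replicate 2, where it did not pass. For Hba-a2 it was -4.75 in all, -5.47 without ASA replicate 2 and -3.78 without ASA replicate 3. For Hba-a3 it was -4.15 in all and -3.56 without DMSO replicate 2. Calls were also lost for Pdgfrb and Rgs5 without ASA replicate 1, for Dcn, Pdgfrb and Hba-a2 without DMSO replicate 1, and for the same 3 genes without DMSO replicate 2. The summed RPKM of this list was 2177 to 3345 in ASA and 1250 to 1612 in DMSO libraries, mostly from Dcn. Of 14 tested pituitary genes none rose and 3 fell (21.4% called, with 4.99% of all tested genes lower), among them the glycoprotein hormone alpha subunit gene Cga and the prohormone convertase gene Pcsk2 (adjusted p = 0.0137 and 0.0232). Neither of these calls held without DMSO replicate 1, and that of Cga held without DMSO replicate 2 while that of Pcsk2 did not. Chga, of the secretory granules, had a log2 difference of -0.61 (adjusted p = 0.0771). Of the 14 genes 10 had a negative log2 difference and 4 a positive one, among the latter Pou1f1 at 0.11 (adjusted p = 0.744). The part of these changes in the values of Cd68 and Itgax was not tested.

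Cd68 is a lysosomal gene as well as a macrophage marker, and it was set beside other genes of the lysosomal membrane. Of 20 tested genes in that list, Cd68 left out, 5 rose and none fell, and 19 had a positive log2 difference. The share called was 25%, with 6.21% of all tested genes higher with ASA, and the median log2 difference was 0.71 against -0.06 over all tested genes. The list was written with earlier results on these libraries known. The calcium channel gene Mcoln3 had 5.15, 19.04 and 14.5 RPKM with ASA and 0.905, 1.27 and 1.41 with DMSO, 8.91-fold higher (log2 difference 3.16 ± 0.50, adjusted p = 0.0173). The groups did not overlap, and ASA replicate 2 was the highest library, as for Cd68. The sialic acid exporter gene Slc17a5 rose 2.93-fold (32.5, 75.1 and 60.1 RPKM with ASA, 14.1, 21.96 and 18.6 with DMSO, adjusted p = 0.0334). Tmem192 rose 2.25-fold (adjusted p = 0.0418) and the cholesterol exporter gene Npc1 1.82-fold (adjusted p = 0.0427). Sidt2, named after its value was seen, rose 2.097-fold (adjusted p = 0.0492). In this set of 20, 10 genes rose and 1 fell without ASA replicate 2, 7 rose without ASA replicate 1, 1 (Mcoln3) rose without DMSO replicate 2 and none rose without DMSO replicate 1. Over all tested genes, 1608 of 12516 rose and 1010 fell without ASA replicate 2, and 982 of 12488 rose without ASA replicate 1. Without DMSO replicate 2, 313 of 12500 rose, and without DMSO replicate 1, 49 of 12499.

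Within the LAMP family Cd68 remained the least abundant of the 3 members with rows, though its share was larger with ASA. Lamp1, the most abundant, had 1358, 2004 and 1199 RPKM in ASA replicates 1, 2 and 3 and 928, 932 and 855 in DMSO replicates 1, 2 and 3 (log2 difference 0.71 ± 0.25, adjusted p = 0.0987). Lamp2 had 440.3, 1031 and 474.2 with ASA and 255.4, 300.5 and 265.7 with DMSO (1.13 ± 0.33, adjusted p = 0.0637). Lamp2 passed as higher in the fits that left out ASA replicate 1 or ASA replicate 2 (adjusted p = 0.0424 or 0.0184, with a highest value of 0.214 over the 6 fits). In both genes all ASA libraries lay above all DMSO libraries and ASA replicate 2 was the highest. Cd68 made up 1.58%, 6.47% and 3.98% of the summed RPKM of the 3 family members in ASA replicates 1, 2 and 3. In the DMSO libraries it made up 0.161%, 0.243% and 0.226%.

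A second lysosomal list held the transcription factors of the MiT family, which drive lysosomal genes, together with genes that respond to lysosomal stress. Of its 16 tested genes 14 had a positive and 2 a negative log2 difference, the latter 2 both with an unadjusted p under 0.05 in limma. The median log2 difference was 0.62 against -0.06 over all tested genes. After adjustment 5 genes rose and none fell, a share called of 31.2% beside 11.2% of all tested genes. Besides Gpnmb, these were the protease gene Ctsb (2.66-fold, adjusted p = 0.0156), Fnip2 of the folliculin complex (4.33-fold, adjusted p = 0.0402), the lipid droplet gene Plin2 (2.33-fold, adjusted p = 0.042, lost without ASA replicate 1) and the GTPase gene Rragd (2.17-fold, adjusted p = 0.0478; named after its value was seen). The factors themselves did not pass. Tfeb, Tfe3 and Mitf had log2 differences of 0.46, 0.62 and 0.74 (adjusted p = 0.177, 0.126 and 0.168). Mitf passed as higher when ASA replicate 2 was left out (adjusted p = 0.0393, the lowest of the 6 such fits, the highest being 0.465). The number of genes of the list that rose was 7 when ASA replicate 2 was left out, with 1 that fell, and 4 when ASA replicate 1 was left out. It was 2 (Gpnmb and Ctsb) without DMSO replicate 2 and 1 (Gpnmb) without DMSO replicate 1. Over all tested genes, 1608 of 12516 rose without ASA replicate 2 and 982 of 12488 without ASA replicate 1. Without DMSO replicate 2, 313 of 12500 rose, and without DMSO replicate 1, 49 of 12499. The log2 difference of Fnip2, 2.11 in all, was 2.74 without ASA replicate 1.

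Itgax was next set beside other integrin chains. Of 17 other alpha chains 9 had rows, and of these none rose and 1 fell. The share called, 11.1%, lies beside 11.2% of all tested genes and rests on 1 gene. That gene was Itga9, with 2.42, 1.32 and 1.83 RPKM in ASA and 8.33, 12.4 and 9.81 in DMSO libraries, 5.32-fold lower (log2 difference -2.41 ± 0.33, adjusted p = 0.0137), a call also lost without DMSO replicate 1. The median log2 difference of the 9 was -0.17. Itgav, the most abundant alpha chain, had 101.1, 45.6 and 62.2 RPKM with ASA and 123.5, 79.4 and 91.5 with DMSO (adjusted p = 0.28). Itga5 had a log2 difference of 0.53 (adjusted p = 0.281), and passed as higher without ASA replicate 2 (adjusted p = 0.0192). Itgax was at place 5, 3 and 5 of the 10 listed alpha chains in ASA replicates 1, 2 and 3. In DMSO replicates 1, 2 and 3 it was at place 9, 9 and 10. Its share of their summed RPKM was 6.16%, 16.5% and 13.3% with ASA and 0.71%, 0.423% and 0.547% with DMSO.

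The beta chain that pairs with the Itgax product, Itgb2, had no row. Of the 5 beta chains with rows none passed in limma, where 11.2% of all tested genes did. Of these 5, 2 had an unadjusted p under 0.05 and 0 passed by voom. The abundant Itgb1 had 441.7, 260.6 and 415.4 RPKM with ASA and 427.4, 406.3 and 386.4 with DMSO (adjusted p = 0.667). Itgb6 and Itgb4 had log2 differences of 1.05 and 0.71 (adjusted p = 0.0886 and 0.117), and Itgb4 passed as higher without ASA replicate 2 (adjusted p = 0.0285). Among 16 tested ligands and adaptors of beta 2 integrins, 1 rose and none fell, a share called of 6.25% beside 11.2% of all tested genes. The gene that rose was Icam1, an adhesion molecule that binds these integrins. It had 212.6, 223.4 and 193.4 RPKM with ASA and 123.6, 144.3 and 135.4 with DMSO. Icam1 was 1.56-fold higher (log2 difference 0.64 ± 0.16, adjusted p = 0.0452). That call held only in the fit without ASA replicate 2 (adjusted p 0.0279 to 0.209 over the 6 fits). F11r, which encodes a junctional adhesion molecule, had a log2 difference of -0.64 (adjusted p = 0.062), and passed as lower without ASA replicate 2 (adjusted p = 0.0343). Fermt3, the kindlin of blood cells that activates beta 2 integrins, had 5.79, 2.31 and 5.27 RPKM with ASA and 2.09, 2.63 and 2.59 with DMSO (adjusted p = 0.259), and passed as higher without ASA replicate 2 (adjusted p = 0.0222).

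**Figure D3:**
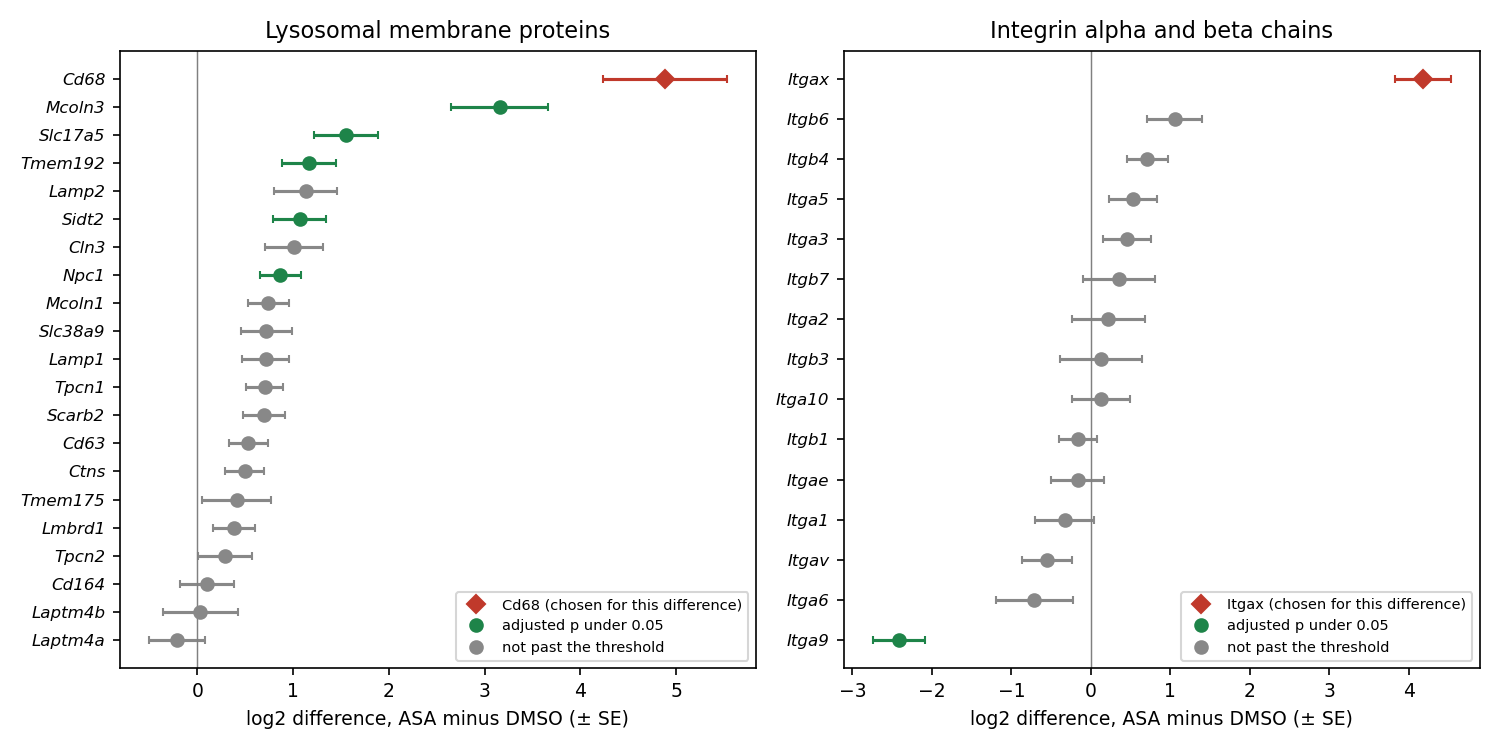
Fitted log2 difference, ASA minus DMSO (horizontal, bars are ± SE), of lysosomal membrane genes with Cd68 on the left and of integrin chains with Itgax on the right; green marks an adjusted p under 0.05 in limma. Cd68 at 4.89 and Itgax at 4.18, which were chosen for this difference, lie to the right of every other gene drawn.

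Of 24 genes of transcription factors active in myeloid cells 12 were tested, and 2 rose and none fell, with a median log2 difference of 0.33. The share called, 16.7%, rests on 2 genes and lies beside 11.2% of all tested genes. Cebpb, a factor of macrophage and stress gene programmes that is made in many tissues, had 203.8, 304.5 and 199.2 RPKM with ASA and 59.2, 114.4 and 64.4 with DMSO (3.05-fold, adjusted p = 0.0231). Id2, which encodes an inhibitor of helix-loop-helix factors needed by dendritic cells and also made widely, had 202.3, 185.4 and 163.9 with ASA and 91.0, 42.2 and 41.1 with DMSO (3.39-fold, adjusted p = 0.0211). For both genes all ASA libraries lay above all DMSO libraries. Pparg averaged 0.964 ± 0.115 RPKM with ASA and 0.443 ± 0.0697 with DMSO (adjusted p = 0.123). It rested on 1 listed exon, with 28 to 43 reads in the ASA and 14 to 22 in the DMSO libraries. Cebpb did not pass without DMSO replicate 1, nor Id2 without DMSO replicate 2, and 3 genes of the list rose without ASA replicate 2. In that last fit 1608 of all 12516 tested genes rose.

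The chromosomal neighbours of both genes were examined as well. Of the 10 nearest genes of the table around Cd68, 5 on each side, none rose and 1 fell, and their log2 differences ran from -0.86 to 0.85. Of all tested genes 11.2% passed in either direction and 4.99% passed as lower with ASA, so 1 call among 10 genes is near the former share. The gene that fell was Eif4a1, a translation initiation helicase gene on the same strand, whose nearest listed exon lies 1237 bases upstream of Cd68. It had 83.1, 58.6 and 71.7 RPKM with ASA and 153.8, 103.6 and 132.3 with DMSO (log2 difference -0.86 ± 0.22, adjusted p = 0.0457), a call also lost without DMSO replicate 1 and without DMSO replicate 2. Mpdu1, a glycosylation gene 1713 bases downstream and also on the same strand, had 49.8, 169.9 and 66.7 RPKM with ASA. In the DMSO libraries it had 45.9, 45.1 and 46.0, so that the groups did not overlap, but most of the difference lay in ASA replicate 2 (log2 difference 0.85 ± 0.41, adjusted p = 0.211). Around Itgax none of the 10 nearest genes passed in limma, with 2 at an unadjusted p under 0.05 and 0 by voom, and their log2 differences ran from -0.66 to 0.79. The nearest of them, LOC103691238 at 78133 bases, had 1.56, 0.149 and 1.40 RPKM with ASA and 1.38, 1.16 and 1.22 with DMSO, and its log2 difference of -0.66 (adjusted p = 0.564) became 0.23 without ASA replicate 2. Pycard, an inflammasome adaptor gene and the nearest on the other side at 117494 bases, had 3.53, 6.62 and 3.95 RPKM with ASA and 2.72, 2.44 and 2.93 with DMSO (adjusted p = 0.191).

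**Figure D4:**
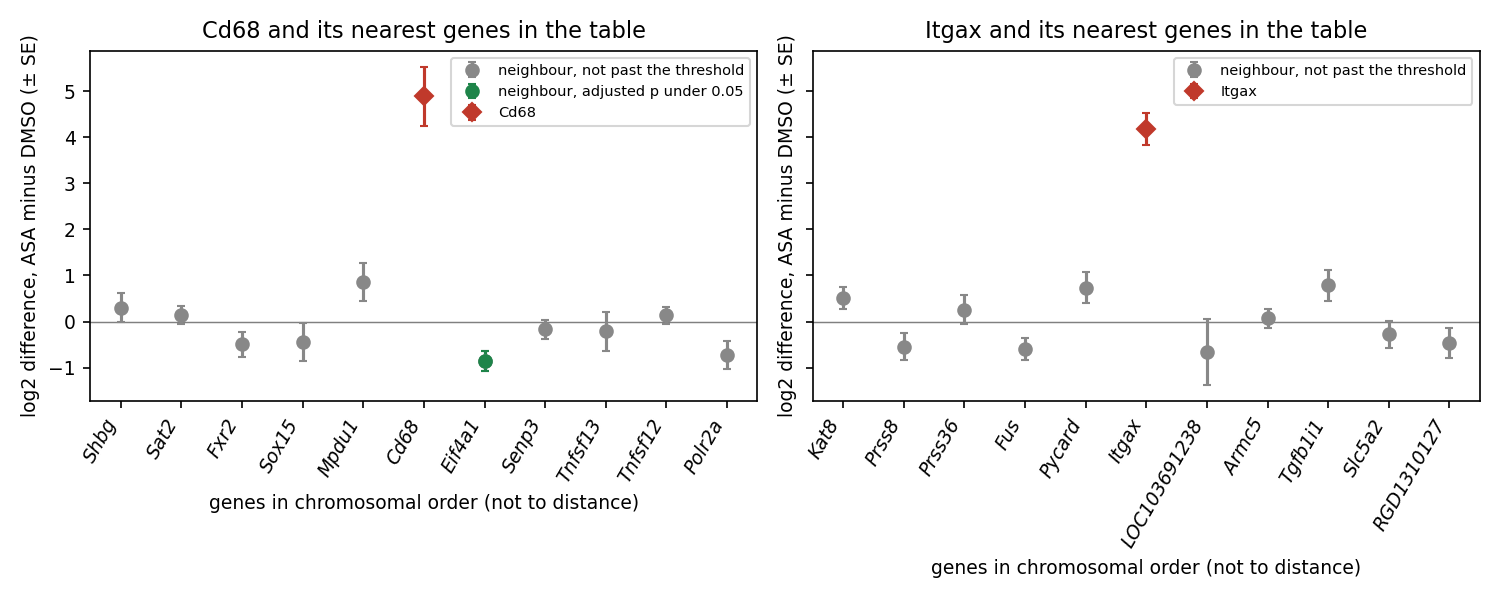
Fitted log2 difference, ASA minus DMSO (vertical, bars are ± SE), of Cd68 and Itgax (red) and of the 5 nearest genes of the table on each side, in chromosomal order and not to distance. The neighbours lie between -0.86 and 0.85, against 4.89 for Cd68 and 4.18 for Itgax, and green marks Eif4a1, the only neighbour with an adjusted p under 0.05.

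The genes most like each member were sought by Pearson's r of log2(RPKM + 0.1) over the 6 libraries, among 12092 other genes with a symbol and a mean of at least 1 RPKM. With 6 libraries in 2 groups such an r is mostly set by the difference between the groups and by the order of the ASA libraries, so it is a description. The highest values for Cd68 were those of Slc35e4 (r = 0.999), Ppp1r13l, Rusc2, Stk11ip and Dennd5a (r = 0.997). Slc35e4 had 54.1, 109.9 and 70.6 RPKM with ASA and 23.2, 25.7 and 23.98 with DMSO, in the same order of libraries as Cd68 but over a narrower range. For Itgax they were Pla2g15 (r = 0.999), Wdr31, Pdgfa, Gpr75 and Tbc1d24 (r = 0.997). Pla2g15 had 35.9, 42.5 and 45.2 RPKM with ASA and 13.7, 10.3 and 10.6 with DMSO. Between Cd68 and Itgax themselves r was 0.933, which put Itgax at place 822 of the genes most like Cd68, and Cd68 at place 572 of those most like Itgax.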

How the data were processed

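The deposited values are log2 RPKM per exon, 1 column per library, made by the authors from polyadenylated directional libraries, per the labels' protocols. Per the submitters' processing notes, the genome build was Rnor_6.0 and the tools, whose roles are not stated there, were edgeR 3.26.8, TopHat2 2.1.0 with Bowtie2, cutadapt 1.14 and Trim Galore 0.4.1. Which program counted reads, whether it used strand, and from which annotation, is not given in the sources used here. Exon lengths are other values of the deposited table. From these values a constant of 0.00292 reads per 1000000 was removed and reads were recovered; 95.7% to 96.8% of values were whole within 0.02 read. A gene's RPKM is the sum of reads over its listed exons, scaled by their length and the library's depth. ASA and DMSO were compared with limma 3.58.1 in R 4.3.3 on log2(RPKM + 0.1), with a variance trend, two-sided, over the 12502 genes that averaged 0.5 RPKM or more, with Benjamini-Hochberg adjustment. The fit was tested on simulated data. Replicate numbers follow the order of the labels and pair nothing. No set test was run.

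Members and gene lists were chosen with earlier results of these data known. Named genes are the members, the 4 comparison markers, Itgb2 and defining markers, up to 4 members of each list by smallest p, the 5 nearest genes on each side and the 5 most alike. Pou1f1, Lamp1, Lamp2, Tfeb, Tfe3, Mitf, Sidt2, Rragd, Rgs5, Lum, Aldoc and Fermt3 lie outside this rule and were chosen after their values were seen. Of 267 listed symbols 120 had rows. A fold change is on the log2(RPKM + 0.1) scale and understates that of low genes. Alternatives were other pseudocounts, filters, scalings, variance models, gene values, voom, library weights and each library left out. Protein and promoter sequences were not used here, and the promoter motif search was not made. The values of 1 listed gene are not reported here.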

Additional observations from a re-analysis of the deposited data

How the results depend on the processing

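Cd68 stayed higher with ASA under every alternative tried, with log2 differences of 4.14 to 5.57 when 1 library was left out, and so did Itgax with 3.93 to 4.46. A pseudocount of 1 in place of 0.1 lowered Itgax to 3.52, since the larger constant compresses low values. The number of genes past the threshold, 1400 in all, was 0 to 2618 when 1 library was left out and 5745 with library weights, the smallest adjusted p being 0.0806 without ASA replicate 3 and 0.0789 without DMSO replicate 3. After scaling to equal medians 48.3% of called genes were higher with ASA, against 55.4%. Of the 4 comparison markers 1 passed, against 3 with library weights (Cd14, Cd74 and Cd3e, all lower with ASA) and 0 to 2 when 1 library was left out. Of 53 tested leukocyte, integrin and lysosomal membrane genes 8 passed, against 5 without the variance trend, 32 with library weights, and 0 to 16 when 1 library was left out. The cause of these shifts was not tested. The remaining alternatives kept these counts within 1.5 times. No paired analysis was possible because the labels give no replicate number or pairing. Every listed exon had over 10 reads in at least 4 libraries, so nothing is said of the level of genes without rows. Library weights, which down-weight libraries that spread more, used limma's gene-by-gene method. These weights ran from 0.1045 for ASA replicate 2 to 8.709 for DMSO replicate 3, so the weighted fit leaned most on that 1 control library.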

Other observations

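The exons of Mpdu1, the gene that follows Cd68 on the same strand, had unequal ratios of ASA to DMSO. In ASA replicate 2 its 3′ exon, number 1, had 195 RPKM, 5.04 times the DMSO mean, and its 5′ exon, number 7, had 106 RPKM, 2.51 times that mean. In ASA replicate 1 the same exons were 1.33 and 0.706 times the DMSO mean, and in ASA replicate 3 they were 1.93 and 1.08 times. The ratio was higher at the 3′ than at the 5′ exon in all 3 ASA libraries. The exons were looked at after the gene's values were seen, and no test was made.

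Among the DMSO libraries Cd68 was lowest in replicate 1 at 1.90 RPKM and highest in replicate 2 at 2.999, and Itgax was highest in replicate 1 at 2.102 and lowest in replicate 2 at 0.955. The Cd68 counts of these libraries, 178 and 244 reads, have Poisson 95% intervals of 153 to 206 and 214 to 277, and the Itgax counts, 448 and 177 reads, have intervals of 407 to 491 and 152 to 205. These libraries were picked after their values were seen, the intervals cover counting error only, and no relation between the genes was tested.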
